A study of Mus musculus with 24 samples.

Results

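The surfactant and alveolar type 2 cell genes of mouse lung are described here across 8 groups of whole lung arrays, in wild type and Rag-1 null mice before and after lipopolysaccharide (LPS). The genes are Sftpb, Sftpc, Sftpa1, Sftpd, Napsa, Lamp3, Abca3, Nkx2-1 and Etv5, taken as every probe that the platform annotation names for them. They are 9 of the 9659 genes that the annotation names, with 11 of the 24046 probes on the array, 1 for each gene and a second for Napsa and for Lamp3. All 11 were among the 13544 probes that passed a detection filter and were tested. The brighter probe stood for Napsa and Lamp3, and the dimmer one is given beside it.

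Alveolar type 2 cells make surfactant, the film of phospholipid and protein that keeps the air sacs from collapsing at the end of a breath, and they divide to replace the flat type 1 cells after injury. Surfactant proteins B and C are small hydrophobic proteins that help the lipid film spread, whereas surfactant proteins A and D are collectins, secreted lectins that bind microbes. Surfactant is packed in lamellar bodies before secretion, and the transcription factor Nkx2-1 keeps many of these genes active in lung epithelium. LPS, the outer membrane glycolipid of Gram-negative bacteria, acts through Toll-like receptor 4 and is a standard way to cause acute lung injury in mice.

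All mice were male C57BL/6, 6 to 8 weeks old. Wild type and Rag-1 null mice were each studied as controls and 1, 4 and 10 days after LPS, with 3 arrays in each of the 8 groups, and each array held RNA from whole lung. Rag-1 null mice cannot rearrange antigen receptor genes and so lack mature T and B cells. No source used here gives the treatment of the controls, the route or dose of LPS or the number of animals behind each array. The p-values therefore measure the spread between these arrays. In whole lung RNA, fewer cells of a type and less RNA per cell cannot be told apart.

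The arrays detected 9517 to 12125 probes, with median signals of 31 to 47.9. Wild type control arrays detected 9663 to 10181 and wild type day 1 arrays 9517 to 10319. Every array of the other groups detected more, at least 10410. The part of this difference in the results for the 9 genes was not tested. The probe for Rag1 itself was close to background in every group and checked nothing about the labels. The T cell gene Cd3d ran from 5.72 to 7.09 on the log2 scale in the 12 wild type arrays and from 4.37 to 4.78 in the 12 Rag-1 null arrays. Replicate arrays had correlations of 0.966 to 0.992 in 7 groups but of 0.858 to 0.969 in wild type lung at day 1, where replicate 1 stood apart. Results that rest on that array are given with and without it. A group had the same position on each of the 3 slides, and effects of position and of group cannot be told apart. As a check of the tissue, 7 of the 9 genes were detected on all 24 arrays, Abca3 on 23 and Etv5 on 22. The arrays that missed Abca3 or Etv5 were all of wild type lung at day 1.

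The sequence before the start of transcription is shown for Sftpb, Sftpa1, Lamp3 and Etv5, because each of these 4 genes fell after LPS in at least 1 comparison and has a window with letters known from lung promoters. RefSeq (GRCm38.p6) gave a window for 6 of the 9 genes, 7 windows in all. Each shows the 250 bases before the start, read 5′ to 3′ on the gene's strand. Capitals mark CTCAAG, the core that NKX2-1 binds in surfactant promoters, or TGTTTNC, a forkhead (FOXA) core, on either strand. The first window lies at chr6:72304360-72304609 on the plus strand, the second at chr14:41131538-41131787 on the plus strand, the third at chr16:19706366-19706615 on the minus strand and the last, 1 of 2 windows of Etv5, at chr16:22439571-22439820 on the minus strand.
Sftpb: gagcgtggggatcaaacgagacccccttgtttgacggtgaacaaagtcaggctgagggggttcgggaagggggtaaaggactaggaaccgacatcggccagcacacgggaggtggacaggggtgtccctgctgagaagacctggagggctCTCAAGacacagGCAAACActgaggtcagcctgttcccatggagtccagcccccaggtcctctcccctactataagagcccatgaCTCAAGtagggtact
Sftpa1: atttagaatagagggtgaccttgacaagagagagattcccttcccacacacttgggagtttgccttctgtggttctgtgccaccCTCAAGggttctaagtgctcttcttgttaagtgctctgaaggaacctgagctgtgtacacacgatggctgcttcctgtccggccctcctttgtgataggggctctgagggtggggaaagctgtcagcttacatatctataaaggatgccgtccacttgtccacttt
Lamp3: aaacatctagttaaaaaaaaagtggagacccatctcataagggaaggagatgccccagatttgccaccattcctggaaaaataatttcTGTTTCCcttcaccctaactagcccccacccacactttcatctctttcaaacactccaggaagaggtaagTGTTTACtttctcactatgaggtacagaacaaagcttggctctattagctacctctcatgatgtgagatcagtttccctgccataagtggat
Etv5: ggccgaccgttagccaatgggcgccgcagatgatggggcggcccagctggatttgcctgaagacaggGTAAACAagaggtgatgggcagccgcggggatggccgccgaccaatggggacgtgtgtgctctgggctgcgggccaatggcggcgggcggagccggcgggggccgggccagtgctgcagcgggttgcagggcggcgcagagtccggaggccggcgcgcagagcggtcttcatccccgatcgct
The Sftpb window held CTCAAG starting 100 and 15 bases before the start and a forkhead core 88 bases before it. Sftpa1 held CTCAAG 166 bases before the start, Lamp3 held forkhead cores 162 and 92 bases before it, and Etv5 held 1 starting 183 bases before it. Among all 32851 promoter windows of that length in the table, 13.3% held CTCAAG and 17.8% held TGTTTNC, so a match is common. A core of the ETS family that Etv5 belongs to, GGAAGT, was in 19.7% of all windows and in 1 of the 7 member windows, that of an Etv5 start. Neither of the first 2 cores was found in the Nkx2-1 and Abca3 windows, which says only that these letters are not in those 250 bases.

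In wild type lung 7 of the 9 genes fell 1 day after LPS, led by the transcription factors Etv5 and Nkx2-1, and the levels were back near or above control by day 10. The 7 were Sftpb, Sftpa1, Napsa, Lamp3, Abca3, Nkx2-1 and Etv5, and none rose. A probe was called when limma's adjusted p was under 0.05 after Benjamini-Hochberg adjustment over all 13544 probes, and 39.2% of all probes were called in this comparison, 21.2% lower. The median log2 fold change of the 9 genes was -1.26, against -0.01 for all probes. Without replicate 1 of wild type day 1, 5 of the 9 were called, and without control replicate 2 or control replicate 3, 4 were called. The 4 that were called under each of these are Lamp3, Abca3, Nkx2-1 and Etv5.

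By day 4 in wild type lung Etv5 alone passed the test, lower, with 23.3% of all probes called, 12.6% lower, and a median log2 fold change of -0.19 for the 9 genes. Between day 1 and day 4 Lamp3, Abca3, Nkx2-1, Etv5 and, at the edge of the threshold, Sftpb rose, 5 of 9, against 34.8% of all probes called and 18.1% higher. The Sftpb groups overlapped, and its change of 1.38 (adjusted p = 0.0483) was 0.28 (adjusted p = 0.444) without replicate 1 of wild type day 1 and missed the threshold without most other single arrays. For Lamp3 the rise of 1.60 (adjusted p = 0.000344) was 1.04 (adjusted p = 0.000475) without replicate 1 of wild type day 1. Between day 4 and day 10 a further rise passed the test for Sftpa1, Abca3, Nkx2-1 and Etv5, with 15% of all probes called and 8% higher. That count was 3 without replicate 1 of wild type day 4, where Sftpa1 was lost (adjusted p = 0.0896), and 7 without replicate 1 of wild type day 1.

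At day 10 wild type lung stood above its controls for most of these genes, although the test passed for Abca3 alone. The median log2 fold change was 0.51, against 0.01 for all probes, and 2.05% of all probes were called, 0.945% higher. For 6 of the 9 genes, Sftpb, Sftpa1, Sftpd, Abca3, Nkx2-1 and Etv5, all 3 day 10 arrays lay above all 3 control arrays, and 14.5% of all probes were separated in that direction. The Abca3 call was lost without wild type control replicate 1 or 2, or without any 1 of the 3 day 10 arrays (adjusted p = 0.0643 to 0.0946).

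In Rag-1 null lung the fall lasted through day 4. At day 1 the genes Sftpb, Sftpc, Sftpa1, Napsa, Abca3, Nkx2-1 and Etv5 fell, 7 of 9, with a median log2 fold change of -0.86, where 16.9% of all probes were called and 9.13% were lower. At day 4 again 7 fell, Sftpc, Sftpa1, Napsa, Lamp3, Abca3, Nkx2-1 and Etv5, with a median of -1.05, where 27.2% of all probes were called and 15.4% were lower. On the normalized scale all 9 genes were lower on every day 4 array than on every control array, a separation that 26% of all probes showed. For Sftpd the signals before normalization and the median-centred values of these groups overlapped. The count ran from 5 to 7 at day 1 and from 5 to 9 at day 4 when 1 array was left out. At day 1 it was 5 without Rag-1 null control replicate 1 or 2 or day 1 replicate 2 or 3. At day 4 it was 5 without Rag-1 null control replicate 2 and 9 without replicate 1 of wild type day 1.

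No gene passed between day 1 and day 4 in Rag-1 null lung by limma, where 7.65% of all probes were called and 3 of the 9 had an unadjusted p under 0.05. Array weights called 4 of the 9 there, and 1 was called in the authors' value table. From day 4 to day 10 all of them but Sftpb rose, 8 of 9, against 9.66% of all probes called and 4.75% higher. That count was 6 without replicate 3 of Rag-1 null day 4, where Sftpc and Sftpd were lost (adjusted p = 0.117 and 0.0573), and 9 without replicate 1 of wild type day 1. At day 10 none of the 9 passed against the Rag-1 null controls, where 8.87% of all probes were called. None of the 9 had an unadjusted p under 0.05 there, and array weights and the authors' value table each called Sftpd (adjusted p = 0.0262 and 0.0478) and a fit of the compared arrays only called Lamp3 (adjusted p = 0.0442). Their median log2 fold change was -0.04.

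**Figure D1:**
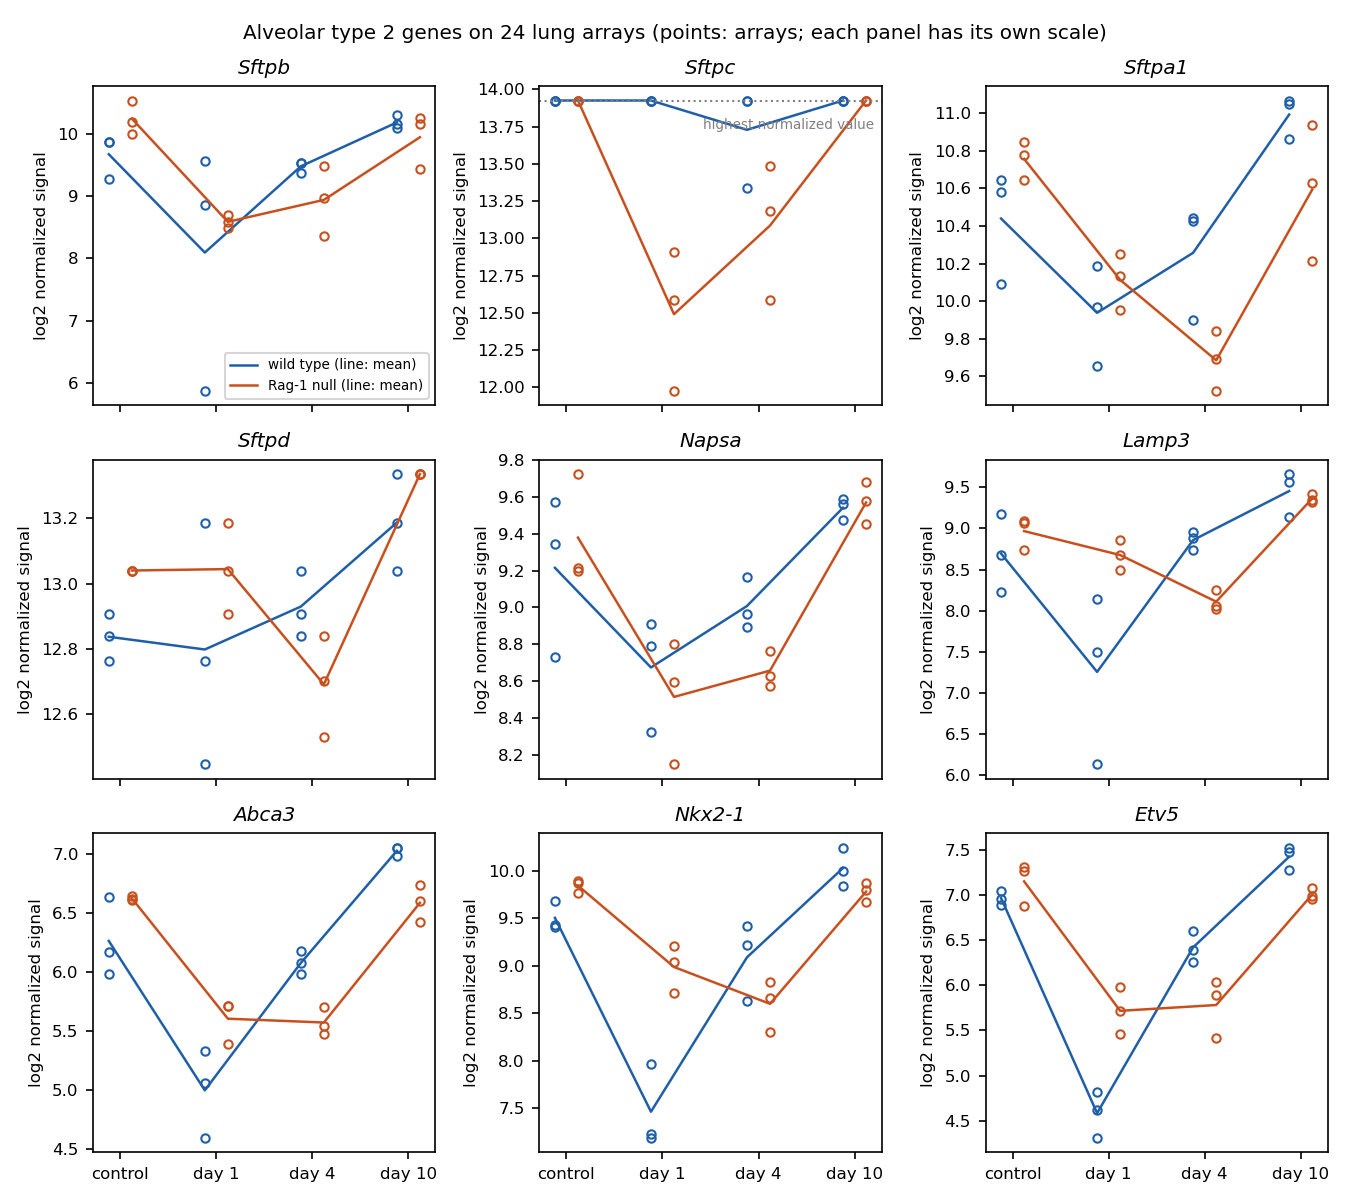
Log2 normalized signal of the brighter probe of each of the 9 genes (vertical axes, each with its own scale) in control lung and 1, 4 and 10 days after LPS (horizontal axes), with 1 open circle per array, 3 per group, and lines through group means. Nkx2-1 and Etv5 in wild type lung dip at day 1 and have recovered most of the way by day 4, whereas in Rag-1 null lung they are still low at day 4.

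Sftpb encodes surfactant protein B, without which newborn mice and children die of respiratory failure. In wild type lung its log2 signal was 9.27, 9.87 and 9.87 in control lung, 5.88, 9.56 and 8.85 at day 1, 9.53, 9.52 and 9.38 at day 4 and 10.16, 10.09 and 10.29 at day 10. Replicate 1 of day 1 lay far below the other wild type arrays, and 1 of the other 2 day 1 arrays lay within the range of the controls. The Rag-1 null values were 10.00, 10.53 and 10.19 in control lung, 8.58, 8.49 and 8.69 at day 1, 9.49, 8.97 and 8.36 at day 4 and 10.25, 10.16 and 9.43 at day 10. All 3 day 1 arrays and all 3 day 4 arrays of Rag-1 null lung lay below the controls. The change at day 1 was -1.58 ± 0.53 (SE), adjusted p = 0.0222, in wild type and -1.66 ± 0.53 (SE), adjusted p = 0.0348, in Rag-1 null lung. Without replicate 1 of wild type day 1 the wild type change was -0.47 with adjusted p = 0.165. It also missed the threshold without wild type control replicate 2 or 3 (adjusted p = 0.0669 and 0.0661) and with cyclic loess, median centring or the authors' value table (adjusted p = 0.0566 to 0.0695). The Rag-1 null call was lost when any 1 of its 6 arrays was left out, with adjusted p from 0.0608 to 0.117. All groups share the same spread estimate in the fit. The standard deviation of Sftpb was 1.95 in wild type lung at day 1, against 0.27 in Rag-1 null controls and 0.10 at Rag-1 null day 1. At day 4 the Rag-1 null change was -1.30 ± 0.53, adjusted p = 0.0753, and with replicate 1 of wild type day 1 left out its adjusted p was 0.000173.

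Sftpc encodes surfactant protein C, made by type 2 cells and by few others, and its probe was the brightest on 17 of the 24 arrays. Quantile normalization gives the brightest probe of every array 1 value, 13.925 here, so Sftpc could not register a rise and could register a fall only after other probes overtook it. In wild type lung it sat at 13.925 on all arrays but replicate 1 of day 4, at 13.34. The Rag-1 null arrays had it at 13.925 for all control and day 10 arrays. It read 12.91, 11.98 and 12.59 at day 1 and 13.49, 13.19 and 12.59 at day 4. The 6 Rag-1 null arrays of day 1 and day 4 were thus the low ones, with no overlap with their controls. The fall was -1.43 ± 0.21 (SE), adjusted p = 3.63e-05, at day 1 and -0.84 ± 0.21 (SE), adjusted p = 0.00416, at day 4 in Rag-1 null lung. The fit shares its spread estimate among all groups, and groups held at 13.925 on every array had a standard deviation of 0. At Rag-1 null day 1 and day 4 it was 0.47 and 0.46, so the SE understates the spread there.

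The signal before normalization shows the same arrays without that limit. Sftpc read 15126.4, 13404.7 and 15381 units on the wild type control arrays, 14676.4, 12323.5 and 18270.3 at day 1, 12261, 13140.2 and 14858.1 at day 4 and 15022.1, 16960.4 and 20607.4 at day 10. Each wild type LPS group overlapped the controls. Rag-1 null lung gave 15041.8, 15564.8 and 20844 in controls, 6856.4, 4521 and 6342.3 at day 1, 10080.2, 10756.4 and 7053.7 at day 4 and 11909.4, 14673.6 and 18770.4 at day 10. Every day 1 and day 4 array was below every control array, and Sftpc ranked 7th, 36th and 12th by signal on the day 1 arrays. With each array only centred on its median, the wild type change of Sftpc was 0.16 at day 1 (adjusted p = 0.621) and the Rag-1 null change was -1.52 (adjusted p = 1.38e-05). Cyclic loess in place of the quantile step gave -0.71 in wild type lung at day 4 (adjusted p = 0.0206).

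**Figure D2:**
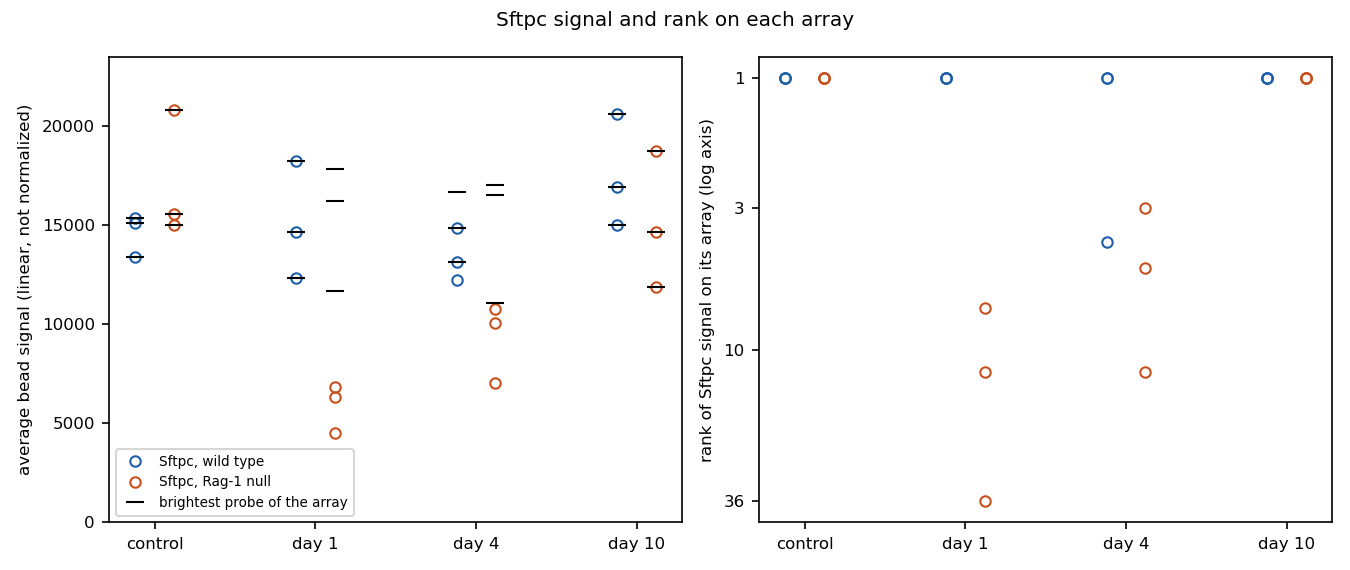
Left, average bead signal of the Sftpc probe before normalization on each array (circles, linear axis from 0) with the brightest probe of that array (bars). Right, rank of Sftpc by signal on the array, on a log axis with rank 1 at the top. Each condition has 3 arrays per genotype, and Sftpc leads every control and day 10 array and drops to rank 36 on 1 Rag-1 null day 1 array.

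Sftpa1 encodes surfactant protein A, the collectin that coats bacteria for uptake by macrophages. Its wild type log2 signal was 10.09, 10.58 and 10.64 in control lung, 10.19, 9.66 and 9.97 at day 1, 9.90, 10.44 and 10.43 at day 4 and 10.87, 11.07 and 11.05 at day 10. Sftpa1 in Rag-1 null lung read 10.78, 10.85 and 10.64 in control lung, 10.25, 9.96 and 10.14 at day 1, 9.84, 9.69 and 9.52 at day 4 and 10.21, 10.63 and 10.94 at day 10. The lowest group mean was that of Rag-1 null lung at day 4, and the highest that of wild type lung at day 10. The change was -0.50 ± 0.19 (SE), adjusted p = 0.039, in wild type at day 1, -0.64 ± 0.19, adjusted p = 0.0205, in Rag-1 null lung at day 1 and -1.07 ± 0.19, adjusted p = 0.000151, at day 4. The wild type call ended on the median-centred scale (-0.18, adjusted p = 0.562) and without wild type control replicate 2 or 3 or day 1 replicate 2 or 3 (adjusted p = 0.0667 to 0.168). The Rag-1 null day 1 call ended on the median-centred scale (-0.44, adjusted p = 0.178). It also ended without Rag-1 null control replicate 1 or 2 or day 1 replicate 2 or 3 (adjusted p = 0.0509 to 0.103). From day 4 to day 10 Sftpa1 rose by 0.74 ± 0.19, adjusted p = 0.00981, in wild type and by 0.91 ± 0.19, adjusted p = 0.00255, in Rag-1 null lung.

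Sftpd encodes surfactant protein D, the other lung collectin, and its log2 values also lie on the few top steps of the normalized scale. In wild type lung they were 12.84, 12.76 and 12.91 in control lung, 13.19, 12.45 and 12.76 at day 1, 12.84, 12.91 and 13.04 at day 4 and 13.34, 13.19 and 13.04 at day 10. Those of Rag-1 null lung were 13.04 on all 3 arrays in control lung, 13.19, 12.91 and 13.04 at day 1, 12.84, 12.70 and 12.53 at day 4 and 13.34 on all 3 arrays at day 10. On this scale groups overlapped at day 1 in both genotypes. The change was -0.04 ± 0.15, adjusted p = 0.869, at day 1 in wild type, where the median-centred scale gave 0.46 (adjusted p = 0.0499) and 0.51 came from the authors' value table (adjusted p = 0.0108). The Rag-1 null change at day 1 was 0.00 ± 0.15, adjusted p = 0.992. Before normalization, however, its signals were 9369.8, 8869.4 and 9806 at day 1 and 7565.6, 7603 and 6610.8 in controls. The day 1 arrays also lay above the controls on the median-centred scale. The day 4 changes were 0.09 ± 0.15, adjusted p = 0.708, for wild type and -0.35 ± 0.15, adjusted p = 0.0984, for Rag-1 null lung. The first of these passed on the median-centred scale (0.72, adjusted p = 0.00375), where the median of all probes moved by 0.27, and in the authors' value table (0.54, adjusted p = 0.00772), where that median was -0.07. The Rag-1 null day 4 change passed without replicate 1 of wild type day 1 (adjusted p = 0.0242). Before normalization the Rag-1 null day 4 signals, 6669.9, 8192.4 and 6876.3, overlapped those of the controls. Sftpd rose from day 4 to day 10 in Rag-1 null lung (0.64 ± 0.15, adjusted p = 0.00754), but the rise did not pass on the median-centred scale (0.44, adjusted p = 0.139).

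Napsa encodes napsin A, an aspartic protease that helps to process the surfactant protein B precursor. Its wild type log2 signal was 8.73, 9.34 and 9.57 in control lung, 8.32, 8.79 and 8.91 at day 1, 8.90, 8.96 and 9.17 at day 4 and 9.59, 9.47 and 9.56 at day 10. Napsa in Rag-1 null lung read 9.20, 9.72 and 9.21 in control lung, 8.59, 8.15 and 8.80 at day 1, 8.77, 8.58 and 8.63 at day 4 and 9.68, 9.58 and 9.45 at day 10. The Rag-1 null day 1 and day 4 arrays all lay below the controls, whereas in wild type lung day 1 overlapped the controls. The fall was -0.54 ± 0.20 (SE), adjusted p = 0.0352, in wild type at day 1, -0.86 ± 0.20, adjusted p = 0.00363, in Rag-1 null lung at day 1 and -0.72 ± 0.20, adjusted p = 0.00875, at day 4. The wild type call ended without day 1 replicate 1 (-0.36, adjusted p = 0.147), without control replicate 2 or 3 (adjusted p = 0.112 and 0.198) and on the median-centred scale (-0.29, adjusted p = 0.299). The Rag-1 null day 4 call ended without control replicate 2 (-0.55, adjusted p = 0.0721). The dimmer Napsa probe moved the same way but passed in none of these, with -0.52 (adjusted p = 0.429) in wild type at day 1 and -0.76 (adjusted p = 0.343) and -0.53 (adjusted p = 0.48) in Rag-1 null lung at day 1 and day 4. On this probe too every Rag-1 null day 1 and day 4 array lay below the controls. In the fit all groups share the same spread estimate. The dimmer probe had standard deviations of 1.03 and 1.59 in wild type control and day 1 lung. Those of the Rag-1 null control, day 1 and day 4 groups were 0.09, 0.13 and 0.19.

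Lamp3, a lysosomal membrane protein of the lamellar body that mature dendritic cells also make, fell in wild type but did not pass in Rag-1 null lung at day 1. In wild type lung its log2 signal was 8.23, 8.68 and 9.18 in control lung, 6.13, 8.14 and 7.50 at day 1, 8.96, 8.89 and 8.74 at day 4 and 9.14, 9.56 and 9.66 at day 10. All 3 day 1 arrays lay below the controls, with replicate 1 the lowest. The Rag-1 null values were 9.10, 9.07 and 8.74 in control lung, 8.68, 8.49 and 8.86 at day 1, 8.25, 8.02 and 8.06 at day 4 and 9.33, 9.35 and 9.42 at day 10. There day 1 overlapped the controls and day 4 lay below them. The change at day 1 was -1.44 ± 0.31 (SE), adjusted p = 0.000758, in wild type and -0.29 ± 0.31, adjusted p = 0.624, in Rag-1 null lung. Without replicate 1 of wild type day 1 the wild type change was -0.88 (adjusted p = 0.00174), and with only the 6 compared arrays fitted its adjusted p was 0.079. The day 4 change was 0.16 ± 0.31, adjusted p = 0.745, in wild type and -0.86 ± 0.31, adjusted p = 0.0427, in Rag-1 null lung. The Rag-1 null day 4 call was lost without any 1 of its 6 arrays (adjusted p = 0.0515 to 0.122) and without any 1 of 6 arrays of other groups (adjusted p = 0.05 to 0.0509), and the dimmer Lamp3 probe gave -0.71 (adjusted p = 0.101). It held without replicate 1 of wild type day 1. On the dimmer probe too every Rag-1 null day 4 array lay below the controls. The spread estimate is shared by all groups in the fit. For the brighter probe the standard deviation was 1.02 at wild type day 1, against 0.20 and 0.12 in Rag-1 null control and day 4 lung. Both probes fell in wild type lung at day 1, the dimmer with -1.38 (adjusted p = 0.00129). Of 14 listed markers of mature dendritic cells 11 were tested, and at day 1, 7 rose and 1 fell in wild type while 6 rose and none fell in Rag-1 null lung. Their mean log2 level lay between 5.55 and 5.60 on those control arrays and between 6.48 and 6.76 at day 1. In wild type lung it lay between 5.71 and 5.96 on control arrays and between 6.48 and 6.62 at day 1. The part of these markers in the Lamp3 result was not tested.

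Abca3 encodes the transporter that loads phospholipid into lamellar bodies. Its wild type log2 signal was 5.99, 6.17 and 6.63 in control lung, 4.60, 5.07 and 5.34 at day 1, 6.08, 5.98 and 6.18 at day 4 and 7.05, 6.98 and 7.05 at day 10. Abca3 in Rag-1 null lung read 6.65, 6.61 and 6.62 in control lung, 5.71, 5.39 and 5.72 at day 1, 5.70, 5.48 and 5.55 at day 4 and 6.42, 6.60 and 6.74 at day 10. Both genotypes were below their controls on every day 1 array, and Rag-1 null lung also on every day 4 array. The fall at day 1 was -1.26 ± 0.17 (SE), adjusted p = 5.30e-06, in wild type and -1.02 ± 0.17, adjusted p = 0.000201, in Rag-1 null lung. At day 4 it was -1.05 ± 0.17, adjusted p = 7.30e-05, in Rag-1 null lung. The wild type day 4 change was -0.19 ± 0.17, adjusted p = 0.48. At day 10 wild type lung stood 0.76 ± 0.17, adjusted p = 0.0243, above control and Rag-1 null lung stood at -0.04 ± 0.17, adjusted p = 0.961. The wild type day 1 arrays had detection p-values of 0.115, 0.0157 and 0.00482 for Abca3, 2 of 3 under 0.05.

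Nkx2-1 encodes the homeodomain factor of lung epithelium that directs surfactant gene transcription. Its wild type log2 signal was 9.42, 9.40 and 9.68 in control lung, 7.23, 7.19 and 7.97 at day 1, 8.63, 9.22 and 9.41 at day 4 and 10.00, 9.84 and 10.24 at day 10. The 3 day 1 arrays lay more than 1 log2 unit below every other wild type array but replicate 1 of day 4. Nkx2-1 in Rag-1 null lung read 9.89, 9.76 and 9.87 in control lung, 9.04, 8.71 and 9.20 at day 1, 8.83, 8.66 and 8.31 at day 4 and 9.67, 9.79 and 9.87 at day 10. Day 1 and day 4 lay below the controls there, and day 10 overlapped them. The fall at day 1 was -2.04 ± 0.21 (SE), adjusted p = 7.87e-08, in wild type and -0.86 ± 0.21, adjusted p = 0.00493, in Rag-1 null lung. The day 4 change was -0.42 ± 0.21, adjusted p = 0.155, in wild type and -1.24 ± 0.21, adjusted p = 7.17e-05, in Rag-1 null lung.

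Etv5 encodes an ETS family factor that acts downstream of fibroblast growth factor receptors and maintains type 2 cell identity in mice. Its wild type log2 signal was 6.89, 7.05 and 6.96 in control lung, 4.31, 4.82 and 4.62 at day 1, 6.26, 6.60 and 6.39 at day 4 and 7.47, 7.52 and 7.27 at day 10. The Rag-1 null values were 6.88, 7.30 and 7.26 in control lung, 5.98, 5.46 and 5.71 at day 1, 6.04, 5.89 and 5.41 at day 4 and 7.07, 6.95 and 6.99 at day 10. No day 1 or day 4 array overlapped its own controls in either genotype. The fall at day 1 was -2.38 ± 0.18 (SE), adjusted p = 1.07e-09, in wild type and -1.43 ± 0.18, adjusted p = 3.53e-06, in Rag-1 null lung. The wild type day 1 arrays had detection p-values of 0.439, 0.0495 and 0.0688 for Etv5, 1 of 3 under 0.05, so its level there is close to the floor of the array and the size of the fall is uncertain. At day 4 the change was -0.55 ± 0.18, adjusted p = 0.0276, in wild type and -1.37 ± 0.18, adjusted p = 3.35e-06, in Rag-1 null lung. The wild type day 4 call ended on the median-centred scale (-0.06, adjusted p = 0.811), in the authors' value table (-0.29, adjusted p = 0.0946) and without control replicate 2 or 3 or day 4 replicate 1 or 3 (adjusted p = 0.0603 to 0.123).

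**Figure D3:**
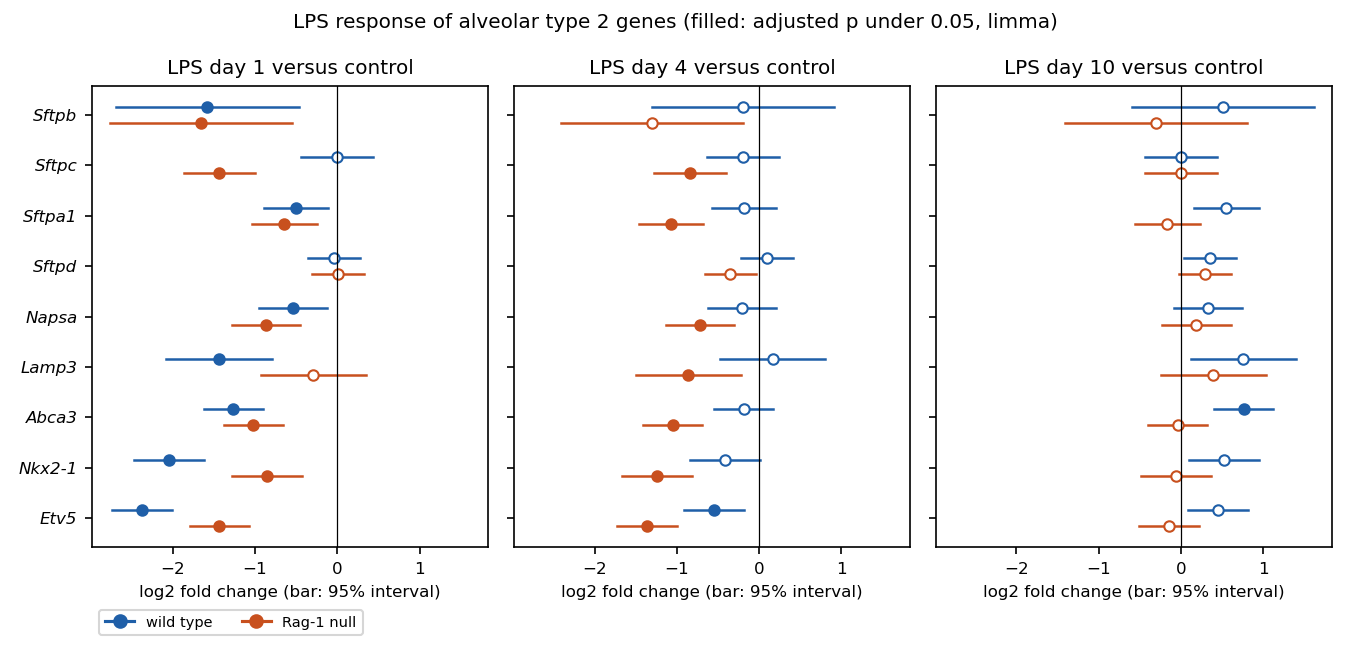
Log2 fold change of the 9 genes against the controls of the same genotype at days 1, 4 and 10 after LPS, with bars for the 95% interval of the limma fit and filled points for an adjusted p under 0.05, 3 arrays per group. At day 1 Nkx2-1 and Etv5 lie further left in wild type than in Rag-1 null lung, Sftpc lies left in Rag-1 null lung alone, and at day 4 all 9 Rag-1 null points lie left of their wild type points.

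Before LPS none of the 9 genes passed between the genotypes by limma, where 1.28% of all probes were called. 1 of the 9 had an unadjusted p under 0.05, Abca3 (0.36 ± 0.17, adjusted p = 0.382), and the authors' value table called 1. At day 1 the levels of Lamp3, Abca3, Nkx2-1 and Etv5 were higher and that of Sftpc lower in Rag-1 null than in wild type lung, 5 of 9, where 24.3% of all probes were called, 13% higher and 11.4% lower. The difference was 1.52 ± 0.21 (SE), adjusted p = 1.48e-05, for Nkx2-1, 1.42 ± 0.31, adjusted p = 0.00179, for Lamp3, 1.13 ± 0.18, adjusted p = 6.99e-05, for Etv5 and 0.61 ± 0.17, adjusted p = 0.0137, for Abca3. The Abca3 call ended without replicate 1 of wild type day 1 (0.41, adjusted p = 0.0607), where Lamp3 was at 0.86 (adjusted p = 0.00345). It also ended without replicate 1 or 3 of Rag-1 null day 1 (adjusted p = 0.0554 and 0.059).

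The test of the difference itself, the Rag-1 null change minus the wild type change, passed at day 1 for Nkx2-1 (1.18 ± 0.29 (SE), adjusted p = 0.0136), Etv5 (0.95 ± 0.25, adjusted p = 0.02) and Sftpc (-1.43 ± 0.30, adjusted p = 0.00388), where 8.21% of all probes were called, 4.19% higher and 4.02% lower. For Sftpc all wild type control and day 1 arrays sat at the ceiling of the normalized scale, so this difference is the Rag-1 null fall alone. Its SE is lowered by the groups that show no spread at that ceiling. The median-centred scale, without that ceiling, gave -1.68 (adjusted p = 0.00155). The Etv5 difference ended without Rag-1 null control replicate 1 (0.81, adjusted p = 0.0698) or day 1 replicate 1 (0.82, adjusted p = 0.0678). It also ended without background correction (0.49, adjusted p = 0.0847), with cyclic loess (0.72, adjusted p = 0.0766), on the median-centred scale (0.71, adjusted p = 0.0864), in the authors' value table (0.37, adjusted p = 0.304) and with only the compared arrays fitted (adjusted p = 0.0782). For Lamp3 it was 1.15 ± 0.44, adjusted p = 0.115. That was 0.59 (adjusted p = 0.167) without replicate 1 of wild type day 1 and 1.59 (adjusted p = 0.0088) without its replicate 2. For Sftpb it was -0.08 ± 0.75, adjusted p = 0.972, and -1.19 (adjusted p = 0.0259) without replicate 1 of wild type day 1.

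At day 4 the Rag-1 null change was the lower one for all 9 genes, although no probe on the array passed the test of the difference and 0% of all probes were called. The 9 genes had a median difference of -0.83 between the changes, against -0.02 for all probes, and 6 of the 9 had an unadjusted p under 0.05, all lower in Rag-1 null lung. Of these 6 the largest were -1.02 ± 0.44, adjusted p = 0.384, for Lamp3, -0.89 ± 0.27, adjusted p = 0.185, for Sftpa1 and -0.87 ± 0.25, adjusted p = 0.162, for Abca3. On the median-centred scale 6 of the 9 passed, where the median of all probes moved by -0.41, and the authors' value table and array weights each called 4. In levels, none passed at day 4 between the genotypes, where 0.539% of all probes were called and 6 of the 9 had an unadjusted p under 0.05. For 5 of the 9, Sftpa1, Napsa, Lamp3, Abca3 and Etv5, every Rag-1 null day 4 array lay below every wild type day 4 array, as did 8.03% of all probes.

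At day 10 none of the 9 passed in levels (5.52% of all probes called) or in the difference of changes (1.52% of all probes called) by limma. In each, 3 of the 9 had an unadjusted p under 0.05. The Abca3 difference of changes was -0.80 ± 0.25, adjusted p = 0.106, with adjusted p = 0.0339 without replicate 1 of wild type day 1 and 0.0462 without wild type control replicate 3. Tested over the 3 days at once by limma's F, 6 of the 9 differed between genotypes in their response, Etv5 (adjusted p = 0.000147), Nkx2-1 (adjusted p = 0.000201), Sftpc (adjusted p = 0.00406), Abca3 (adjusted p = 0.00414), Lamp3 (adjusted p = 0.00869) and Sftpa1 (adjusted p = 0.0468), where 15.6% of all probes were called. Leaving out 1 array gave 5 to 8, with 5 for most of the single arrays and 8 without replicate 1 of wild type day 1.

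Other genes marking type 2 cells moved in the same comparisons. The counts of the lists stand against 39.2%, 23.3% and 2.05% of all probes called in wild type lung at days 1, 4 and 10, and 16.9%, 27.2% and 8.87% in Rag-1 null lung. Of 24 listed markers that are not among the 9, 21 were tested, and in wild type lung 13 fell and 1 rose at day 1, 4 fell and 3 rose at day 4 and 1 fell and 1 rose at day 10. In Rag-1 null lung 9 fell and 1 rose at day 1, 11 fell and 1 rose at day 4 and 1 fell and 5 rose at day 10. The median log2 fold change of these markers was -1.16 at day 1 in wild type lung and -0.67 and -0.58 at day 1 and day 4 in Rag-1 null lung, against -0.02 to 0.01 for all probes over the 6 comparisons. Lgi3 fell, with a log2 fold change of -2.76 ± 0.34 (adjusted p = 1.26e-06) in wild type and of -2.61 ± 0.34 (adjusted p = 8.41e-06) in Rag-1 null lung at day 1. Lrp2, the endocytic receptor megalin, fell, with a log2 fold change of -1.83 ± 0.21 (adjusted p = 6.6e-07) and -1.23 ± 0.21 (adjusted p = 0.000252). Hc, which encodes complement component C5, fell, with a log2 fold change of -3.34 ± 0.32 (adjusted p = 7.28e-08) in Rag-1 null lung at day 4. Dram1, a lysosomal autophagy protein, fell in wild type at day 1 (-1.49 ± 0.20, adjusted p = 3e-06) and was at -0.12 ± 0.20 (adjusted p = 0.783) in Rag-1 null lung. The difference between the changes of Dram1 was 1.37 ± 0.28 (adjusted p = 0.00333). Bex2 was lower at all 3 days in both genotypes, and still at -2.25 ± 0.31 (adjusted p = 4.13e-05) at day 10 in Rag-1 null lung.

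Genes of surfactant lipid synthesis fell in part. Of 27 listed genes 24 were tested, and 9 fell and 2 rose in wild type lung at day 1, 3 fell at day 4 and 1 fell at day 10. In Rag-1 null lung 8 fell at day 1, 10 at day 4 and 1 at day 10, and none rose. The list's median log2 fold change was -0.30 for wild type at day 1 and -0.46 for Rag-1 null at day 4. Lpcat1, the acyltransferase that makes the dipalmitoyl phosphatidylcholine of surfactant, fell, with a log2 fold change of -1.84 ± 0.25 (adjusted p = 4.83e-06) at day 1 in wild type lung. Lpcat1 in Rag-1 null lung fell, with a log2 fold change of -1.19 ± 0.25 (adjusted p = 0.00164) at day 1 and -1.24 ± 0.25 (adjusted p = 0.000634) at day 4. Fasn, the fatty acid synthase, fell, with a log2 fold change of -1.81 ± 0.27 (adjusted p = 1.15e-05) at day 1 in wild type lung and of -1.72 ± 0.27 (adjusted p = 3.22e-05) at day 4 in Rag-1 null lung. Scd2, a fatty acid desaturase, fell, with a log2 fold change of -2.05 ± 0.28 (adjusted p = 4.38e-06) at day 1 in wild type lung. Acaca, Acly and Elovl1, further enzymes of fatty acid supply, fell at day 1 in both genotypes and again in Rag-1 null lung at day 4.

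The growth factor pathway above Etv5 gave falls and rises. Of 21 listed genes 12 were tested, and in wild type lung at day 1, 6 fell and 4 rose, while in Rag-1 null lung 3 fell and 1 rose at day 1 and 4 fell at day 4. The list's medians lay between -0.13 and -0.01 over the 6 comparisons. Fgfr2, the epithelial receptor, fell, with a log2 fold change of -0.84 ± 0.21 (adjusted p = 0.00262) in wild type at day 1 and of -1.06 ± 0.21 (adjusted p = 0.000505) in Rag-1 null lung at day 4. Fgf10, its mesenchymal ligand, fell, with a log2 fold change of -1.36 ± 0.17 (adjusted p = 1.51e-06) and -0.58 ± 0.17 (adjusted p = 0.0197) at day 1 in wild type and Rag-1 null lung. Etv1, a relative of Etv5, fell, with a log2 fold change of -1.34 ± 0.23 (adjusted p = 6.01e-05) in wild type and -1.12 ± 0.23 (adjusted p = 0.00102) in Rag-1 null lung at day 1. Spry4, an inhibitor of the same receptors, rose by 1.399 ± 0.25 (adjusted p = 0.000103) and 0.73 ± 0.25 (adjusted p = 0.0452). Spry1, not well above background in wild type lung at day 1, was at least 1.25-fold lower there (adjusted p = 0.000756), and Spred1, not well above background in wild type controls, was at least 1.63-fold higher at day 1 (adjusted p = 0.00105).

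Among 25 tested of 30 listed lung epithelial transcription factors, 6 fell and 4 rose in wild type lung at day 1, near the 39.2% of all probes called and 21.2% lower, and 8 fell and 1 rose at day 4. In Rag-1 null lung 6 fell and 1 rose at day 1 and 12 fell and 1 rose at day 4. Foxa1, a forkhead factor that opens chromatin at surfactant genes, was at 0.02 ± 0.12 (adjusted p = 0.898) in wild type at day 1 and fell, with a log2 fold change of -0.80 ± 0.12 (adjusted p = 5.49e-05) in Rag-1 null lung. At day 4 Foxa1 fell, with a log2 fold change of -0.56 ± 0.12 (adjusted p = 0.00188) and -0.92 ± 0.12 (adjusted p = 5.12e-06). Elf5 fell, with a log2 fold change of -1.92 ± 0.25 (adjusted p = 2.62e-06) in wild type and -1.42 ± 0.25 (adjusted p = 0.000282) in Rag-1 null lung at day 1. Sox9, a factor of the growing lung tips in the embryo, was not well above background in wild type controls and at least 4.45-fold higher at day 1 (adjusted p = 1.31e-10). In Rag-1 null lung Sox9 did not pass at day 1 (adjusted p = 0.3).

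Of 14 listed genes of surfactant protein processing and turnover 11 were tested, and 4 rose and 3 fell in wild type lung at day 1 and 4 rose and 1 fell in Rag-1 null lung. At day 4, 4 rose and none fell in wild type, and 4 rose and 3 fell in Rag-1 null lung. Csf2 encodes GM-CSF, the cytokine that lets alveolar macrophages clear surfactant. It rose by 3.57 ± 0.30 (adjusted p = 9.06e-09) in wild type and 2.38 ± 0.30 (adjusted p = 6.17e-06) in Rag-1 null lung at day 1. Ctsh, a lysosomal protease that processes surfactant protein B and C precursors and is also made by macrophages, rose by 1.01 ± 0.23 (adjusted p = 0.00145) in wild type lung at day 1. Napsa and Sftpb were called lower there, but neither call held without replicate 1 of wild type day 1. Csf2ra, a chain of the GM-CSF receptor on macrophages, rose by 1.14 ± 0.16 (adjusted p = 2.32e-05) at day 4 in wild type and by 1.41 ± 0.16 (adjusted p = 4.65e-06) at day 10 in Rag-1 null lung. These lists share members (Lpcat1 and Ctsh stand in 2 of them each).

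Markers of injured or transitional alveolar epithelium moved the other way. Of 23 listed, 20 were tested, and in wild type lung 15 rose and 1 fell at day 1 and 8 rose at day 4. In Rag-1 null lung 4 rose and 1 fell at day 1, 10 rose and 2 fell at day 4 and 6 rose at day 10. Krt8, a keratin that type 2 cells raise on the way to type 1 cells in mice, rose by 0.92 ± 0.25 (adjusted p = 0.00479) in wild type and was at -0.14 ± 0.25 (adjusted p = 0.789) in Rag-1 null lung at day 1. At day 4 Krt8 rose by 1.13 ± 0.25 (adjusted p = 0.00204) and 1.501 ± 0.25 (adjusted p = 6.99e-05). Lcn2, also a neutrophil gene, rose by 4.42 ± 0.30 (adjusted p = 2.7e-10) and 4.51 ± 0.30 (adjusted p = 1.19e-09) at day 1.

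Markers of other cell types also changed. Of 14 alveolar type 1 genes tested, 9 fell and 1 rose at day 1 in wild type lung and 9 fell at day 4 in Rag-1 null lung, and their mean log2 level was 8.71 to 9.04 on wild type control arrays and 7.56 to 8.14 at day 1. Of 11 club cell genes 7 fell in wild type lung at day 1, while 8 fell on the Rag-1 null arrays of day 4, and of 18 endothelial genes 12 fell and 2 rose in the first and 15 fell in the second of those comparisons. At day 10 in Rag-1 null lung, where none of the 9 genes passed, 6 type 1, 7 club and 11 endothelial genes were lower. In wild type lung at day 4, where Etv5 alone of the 9 passed, 6 type 1, 7 club and 8 endothelial genes fell. There 9 neutrophil genes rose. Among 17 pan-epithelial genes 6 rose and 3 fell at day 1 in wild type, while on Rag-1 null arrays 5 fell and none rose at day 1 and 5 fell and 3 rose at day 4. Their mean level was 6.91 to 7.08 on wild type controls and 7.21 to 7.35 at day 1. Rag-1 null arrays gave 7.06 to 7.35 in controls, 6.86 to 6.94 at day 1 and 7.17 to 7.34 at day 4. Krt8, Krt18 and Cldn4 stand both in the pan-epithelial list and in that of injured or transitional epithelium, so the counts of these lists are not separate. Lcn2 stands in the injured or transitional list and in the neutrophil list. Of 18 neutrophil genes 16 rose at day 1 in wild type lung and 12 and 16 at day 1 and day 4 in Rag-1 null lung, with mean levels of 5.68 to 7.17 on wild type controls and 7.93 to 8.80 at day 1. Of 14 monocyte and macrophage genes 12 rose at day 4 in each genotype and 1 fell in Rag-1 null lung, with mean levels of 6.87 to 6.96 on Rag-1 null control arrays and 8.63 to 8.72 at day 4. The part of these shifts in the results for the 9 genes was not tested.

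**Figure D4:**
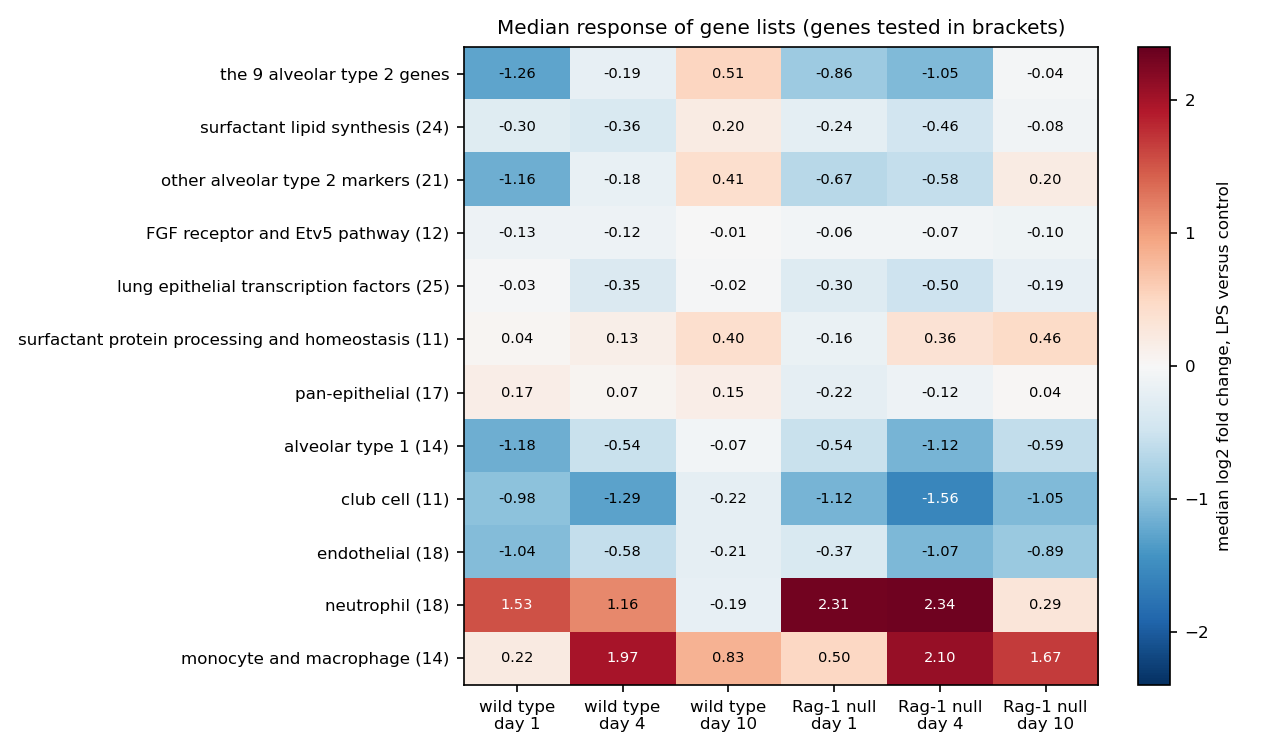
Median log2 fold change against controls of the same genotype for the 9 genes and for 11 gene lists (rows, with the number of genes tested) at days 1, 4 and 10 in each genotype (columns), with colour and printed number showing the same value. The 9 genes, the other type 2 markers, and the type 1, club and endothelial lists share low medians in the columns for wild type day 1 and Rag-1 null day 4, where the neutrophil list is high. Their medians are also negative for Rag-1 null day 1 and wild type day 4, with neutrophil medians of 2.308 and 1.155.

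Over the 8 group means, which share arrays and normalization, pairwise Pearson correlations ran from 0.16 for Lamp3 with Sftpc to 0.978 for Etv5 with Abca3. Sftpc sat at the 13.925 ceiling on every array of 5 of the 8 groups and Sftpd on the top steps of the scale, so the correlations of these genes cannot be read like those of the others. Nkx2-1 correlated at 0.977 with Etv5. Of 9469 other named genes, those most like the mean course of the 9 were Pip4k2c (0.994), Inppl1, Scd1 (0.989), Mmp11, Trim3, Dtx3, Mid1ip1, Zfp362, Fasn (0.978) and Ahcyl2. Scd1 and Fasn are fatty acid synthesis enzymes of the lipid list. The closest to single genes were Rtn2 for Sftpb (0.995), Ecrg4 for Sftpc (0.969), Jkamp for Nkx2-1 (0.997) and Zmym3 for Etv5 (0.996). With 8 points and 9469 genes compared, such values describe these group means only.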

How the data were processed

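RNA from whole lung was labelled with biotin and hybridised to an Illumina mouse beadchip, 24 arrays on 3 slides, each slide with 1 array of every group and 1 replicate number. For each of 24046 probes the deposited scanner table holds a mean bead intensity, per the file headers, and a detection score, a fraction from 0 to 1. The authors' deposited value table holds log2 values of 13029 probes, equal to the log2 signal minus the array mean. The titles printed over the scanner data disagreed with the value table on 22 of 24 arrays, so each array was tied to its sample by identity with the value table's columns. Intensities were background-corrected with normexp on negative-control estimates, quantile-normalized with an offset of 16 and logged (neqc, limma 3.58.1, R 4.3.3), taking 1 minus the score as the detection p. Probes with detection p under 0.05 on at least 3 arrays were kept, 13544 in all. One limma model of 8 group means gave 17 contrasts and 1 F test, with Benjamini-Hochberg adjustment over all kept probes, and was tested on simulated data. All 9 members were named, and from each list up to 6 genes with the smallest adjusted p over the 6 comparisons of LPS with control. The members and lists were chosen with earlier results of these data known. Alternatives were background, normalization, filter, weights, block and left-out arrays. The number of arrays limits the precision.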

Additional observations from a re-analysis of the deposited data

Results flagged for a closer look

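The response to LPS differed between the genotypes, by a test of the difference itself, in 3 genes at day 1 and in 6 genes over the 3 days. At day 1 the Rag-1 null change minus the wild type change was -1.43 on the log2 scale for Sftpc, 1.18 for Nkx2-1 and 0.95 for Etv5. Sftpc sat at the 13.925 ceiling on all wild type control and day 1 arrays and on all Rag-1 null control arrays. Its normalized difference is therefore the Rag-1 null fall from that ceiling, and its F rests on the same capped values. Etv5 was detected on 1 of the 3 wild type day 1 arrays, and its difference lost its call under 5 other settings and without either of 2 single arrays, with 0.37 (adjusted p = 0.304) in the authors' value table. Over days 1, 4 and 10 limma's F was 20.33 for Etv5, 19.17 for Nkx2-1, 10.5 for Sftpc, 10.43 for Abca3, 8.644 for Lamp3 and 5.236 for Sftpa1. Of the 6, Sftpa1 was nearest the threshold (adjusted p = 0.0468), and the count was 5 when most of the single arrays were left out.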

How the results depend on the processing

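Counts of the 9 genes called are given in the order of the comparisons named. Cyclic loess gave 4 in wild type at day 1 and 2 at day 4. Median centring gave 4 in wild type at day 10, 2 from wild type day 4 to day 10, 4 for the genotypes at day 4 and 6 and 2 for the difference of responses at day 4 and day 10. The authors' value table gave 6 in wild type at day 10, and 1 each in Rag-1 null lung at day 10, Rag-1 null day 4 against day 1, the genotypes at control and the genotypes at day 4. It gave 4 and 2 for the difference of responses at day 4 and day 10. Array weights gave 3 in wild type at day 10, 1 in Rag-1 null lung at day 10, 7 from wild type day 4 to day 10 and 4 for Rag-1 null day 4 against day 1. They gave 6 and 3 for the genotypes at day 4 and day 10 and 4 and 2 for the difference of responses. Fitting only the compared arrays gave 3 in wild type at day 1, 1 in Rag-1 null lung at day 10, 3 from wild type day 1 to day 4, 7 from day 4 to day 10 and 1 for Rag-1 null day 4 against day 1. It gave 3 and 2 for the genotypes at day 1 and day 10 and 1 for the difference of responses at day 10. A fit without the 3 wild type day 1 arrays, chosen after seeing the data, gave 2 in wild type at day 10, 7 from wild type day 4 to day 10, 2 for Rag-1 null day 4 against day 1, 2 for the genotypes at day 4 and 1 for the difference of responses at day 10. The cause of these differences was not tested.

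With 1 array left out the counts in wild type were 4 to 7 at day 1, 0 to 1 at day 4 and 0 to 2 at day 10, while Rag-1 null lung gave 5 to 7, 5 to 9 and 0 to 0 at these days. They were 4 to 5 and 3 to 7 from wild type day 1 to day 4 and day 4 to day 10, and 0 to 1 and 6 to 9 in Rag-1 null lung. Between the genotypes they were 0 to 0 at control, 4 to 5, 0 to 2 and 0 to 0 at the 3 days, 2 to 4, 0 to 0 and 0 to 1 for the difference of responses, and 5 to 8 by F. Each replicate number was 1 slide, with 1 array of every group. Same-numbered arrays of different groups correlated in their deviations from the group means at -0.49 to 0.37 (median 0.06) and 11 of 24 arrays correlated best with their own number. With the replicate number, and so the slide, as a block the counts were those of the fit without it, apart from 5 in place of 6 by F. Within slides, all called changes had 1 direction on the 3 slides except Sftpa1 in wild type at day 1 and Sftpb from wild type day 1 to day 4. The change of Sftpd in wild type at day 1, -0.04, was 0.46 under median centring and 0.51 in the value table, the 2 reversals found. Median centring moved the median of all probes by 0.27 in wild type at day 4, 0.19 at day 10, 0.22 from wild type day 1 to day 4, 0.18 and -0.21 between genotypes at control and day 4, and -0.41 and -0.19 in the difference of responses at day 4 and day 10. Over all probes the count called in wild type at day 1 was 5316, with 2117 to 5762 under the other settings, in Rag-1 null lung at day 4 it was 3686 with 3271 to 5920, and in wild type at day 10 it was 278 with 132 to 1381.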
